A study of Mus musculus with 96 samples.

Results

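The genes described here are 41 mouse genes that fold, translocate, glycosylate and dispose of proteins in the endoplasmic reticulum (ER), out of 23481 gene symbols in the count table. They were taken by name, with earlier results of these data known. There are 9 luminal or membrane chaperones and co-chaperones, 4 disulfide isomerases and 8 genes of ER-associated degradation. The rest are 9 genes of translocation and signal peptide cleavage, 6 genes of N-glycosylation, and 5 stress sensors and regulators. All 41 had counts in at least 1 library, and 33 were deep enough to be tested among 4963 symbols that passed the same filter on low counts.

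The cells were bone marrow-derived macrophages (BMDM) grown with MCSF (a macrophage growth factor, given as conditioned medium) from 8-week-old mice, which were wild-type males of the strain C57BL/6. The 96 libraries form 12 groups of 8 wells, with 4 wells of each group on each of 2 plates. One group, NoStim, received no LPS, the bacterial lipopolysaccharide that activates macrophages. The other groups received a compound or the vehicle DMSO 30 min before LPS and were lysed 4 h after LPS, and are called by the labels' names: DMSO for the vehicle, BrefA and Tunicamycin for the compounds that act on the secretory pathway, and Halofuginone, tBHQ, Torin, Dexa, pGE2, Baflo, Caspase-1 and ZVAD for the rest. Doses were not given in the sources used here, so no effect is set against a dose, and the text names no vehicle for NoStim because none is stated. The labels do not say whether wells came from separate cultures or mice, so the p-values measure the spread between wells, which may be technical.

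Proteins that enter the secretory pathway are threaded into the ER through the Sec61 channel, trimmed by the signal peptidase, given N-linked glycans by the oligosaccharyltransferase, and folded by chaperones and disulfide isomerases. Proteins that fail to fold are drawn back out and degraded. When unfolded protein builds up, the sensors Ern1, Atf6 and Eif2ak3 start the unfolded protein response, which raises the genes of folding and degradation. BrefA is read here as brefeldin A, which blocks transport from the ER to the Golgi, and tunicamycin blocks the first step of N-glycosylation. Both are standard ways to provoke that response. Halofuginone inhibits the charging of prolyl-tRNA, Torin inhibits the kinase mTOR, and tBHQ activates the oxidative stress factor NRF2.

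The best-known regulatory sequence of this gene class is the ER stress response element (ERSE), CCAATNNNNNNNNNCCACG, through which Atf6 and Xbp1 act. It was searched on both strands in the promoters of RefSeq (build GRCm38.p6), each from 250 bases before to 50 after a gene's start. Of 33 members with a promoter entry, 7 held it (21.2%), against 39 of 32851 promoters of all genes (0.119%). The 5 stretches below are shown because the BrefA wells, described further on, separate them: Pdia6, Dnajc3 and Hsp90b1 rose, and Calr and Canx had smaller positive values that did not pass the test. Each is written 5′ to 3′ on the strand of its gene, with the matching letters in capitals, and no annotated gene or exon lies over any of them.
Pdia6: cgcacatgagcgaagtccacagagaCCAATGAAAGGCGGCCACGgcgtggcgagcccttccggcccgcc
Dnajc3: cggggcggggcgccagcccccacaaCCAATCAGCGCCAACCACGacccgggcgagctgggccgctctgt
Hsp90b1: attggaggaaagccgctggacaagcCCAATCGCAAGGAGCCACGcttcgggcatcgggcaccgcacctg
Calr: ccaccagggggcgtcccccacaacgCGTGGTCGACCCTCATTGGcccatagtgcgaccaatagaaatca
Canx: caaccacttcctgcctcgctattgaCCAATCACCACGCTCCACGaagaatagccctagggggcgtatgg

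The Pdia6 stretch is chr12:17266466-17266534 (plus strand), with the match 98 to 80 bases before the start. The Dnajc3 stretch is chr14:118937802-118937870 (plus strand), with the match 105 to 87 bases before the start. Both Hsp90b1, at chr10:86705613-86705681, and Canx, at chr11:50325775-50325843, lie on the minus strand, with matches 212 to 194 and 145 to 127 bases before their starts. The Calr stretch is chr8:84847050-84847118 (minus strand), and its match reads CCAAT on the strand opposite to the gene, 162 to 144 bases before the start. Creld2 and Syvn1, which did not pass the filter on low counts, were the other two members with a match. Hsp90b1 held a second match nearer its start. Of the 12 members with a promoter entry that were called higher with BrefA, 3 held the ERSE, and of the 14 other tested members with an entry 2 did. Hyou1, Manf, Ssr2, Sec61a1, Derl1 and Ostc, also called higher with BrefA, had no promoter entry and were not searched. Neither were Atf6 and Spcs3. A related form, ATTGGNCCACG, was in 12 promoters (0.0365%) and in 1 member, Dnajb11, after its start. The letters TGACGTG (2.01% of promoters), TGATGCAA (0.895%) and TGATGAAA (1.02%), which are cores of other stress elements, were in 0 member windows. A match describes letters in these windows and is no measurement of binding.

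Depth was low and uneven. Library totals ran from 80196 to 379198 counts, with a median of 257984.5. The Halofuginone wells held 80196 to 136526 counts, of which 39.0 to 49.1% were the ribosomal RNA transcript Rn45s, against 9.43 to 23.7% in DMSO, so the 2 groups did not overlap in that share. All 11 macrophage markers had counts, with a summed level of 3066.62 to 7618.89 CPM, which are counts scaled to the library total, across libraries. Of the other cell type lists, all 4 erythroid genes were at 0. The summed T cell, B cell, neutrophil and fibroblast markers had medians of 0 over all libraries. Their highest sums were 29.3, 6.68, 23.9 and 65.9 CPM, the last in a ZVAD well. In pGE2 the neutrophil sum ran from 2.73 to 21.8 CPM, with a median of 13.7 CPM. The plasma cell list ran from 12.0 to 312 CPM, with Mzb1 at 0 and Sdc1 giving nearly all of it. One library stood apart: across 3811 genes, the deviations of Tunicamycin plate 2 well F had r = -0.0295 with those of its group on the other plate, where the median library had 0.524. Same-named wells of the 2 plates also deviated together (mean r over 0.1) in 8 of 12 groups. With same-named wells summed, 9 of the 92 calls of single members were lost and 0 changed sign. Bulk libraries cannot tell fewer cells of a type from less RNA per cell.

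The 41 genes together held 96972 counts, and 27.1% of them were Calr, the calcium-binding lectin chaperone of the ER lumen. As a share of all counts other than Rn45s, the 41 genes ran from 0.414% to 0.532% in the DMSO wells, with a median of 0.435%. The BrefA wells ran from 0.652% to 0.812% with a median of 0.727%, and all 8 lay above every DMSO well. NoStim had 0.510, 0.542 and 0.643% (lowest, median, highest), tBHQ had 0.498, 0.514 and 0.573%, and Tunicamycin had 0.426, 0.446 and 0.520%. The Torin wells had the lowest median, 0.373%, but reached 0.616% in a well where Calr was high. With Calr left out, a choice made after seeing its values, the DMSO share was 0.307 to 0.358%. BrefA then had 0.518 to 0.654% and NoStim 0.401 to 0.445%, both wholly above DMSO, tBHQ had 0.354 to 0.408%, and Torin had 0.244 to 0.320%.

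**Figure D1:**
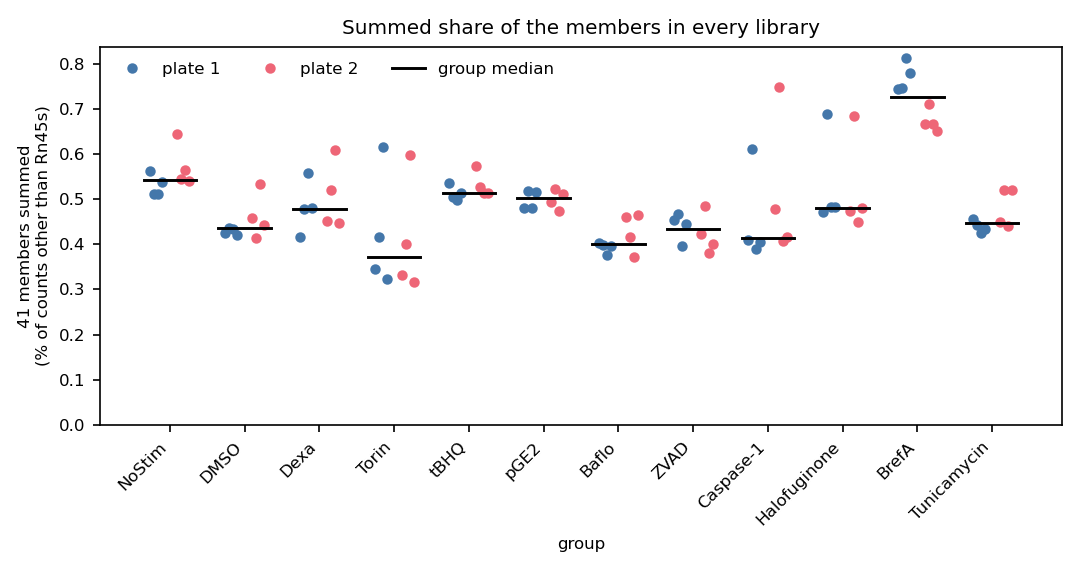
Summed counts of the 41 ER genes as a percent of all counts other than Rn45s, one point per library, in 12 groups of 8. The 8 BrefA libraries lie between 0.652 and 0.812%, above all DMSO libraries, whose highest is 0.532%.

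BrefA with LPS, set against DMSO with LPS, raised 18 of the 33 tested members and lowered 0. Among all 4963 genes tested, 8.08% were called higher and 9.25% lower in that comparison. Members were called at an adjusted p under 0.05 from edgeR's quasi-likelihood test with Benjamini-Hochberg adjustment over all genes tested. Their median log2 fold change was 0.61, against 0.0080 over all genes tested, and 30 of 33 were positive. Calls fell on 7 of 8 translocation genes, 5 of 8 chaperones, 3 of 6 degradation genes, 2 of 5 glycosylation genes, 1 of 4 isomerases and 0 of 2 sensors and regulators. Each of the 18 had the same sign on both plates, with 12 members called on plate 1 alone and 10 on plate 2 alone.

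The chaperone Dnajc3 (also called p58IPK, a co-chaperone of Hspa5; chr14:118937976-118981697 in mm10) had 74.1, 104.6 and 125.8 CPM (lowest, median, highest) in DMSO. With BrefA it had 151.5, 258.8 and 342.1 CPM, and 29.4, 106.8 and 145.4 CPM with Tunicamycin. All 8 BrefA wells lay above all DMSO wells. The log2 fold change with BrefA was 1.39 ± 0.16 (SE, n = 8 against 8; edgeR adjusted p = 1.84e-12). The isomerase Pdia6, which forms and rearranges disulfide bonds (chr12:17266545-17284770), had 24.8, 36.1 and 63.9 CPM in DMSO and 64.0, 106.2 and 177.8 CPM with BrefA. Its lowest BrefA well was just above its highest DMSO well, and the log2 fold change was 1.53 ± 0.24 (edgeR adjusted p = 4.24e-08), the largest of the 33. These levels rest on few reads: 79 counts over the 8 DMSO wells and 235 over the 8 BrefA wells.

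Manf, a small secreted ER protein that binds Hspa5 (chr9:106838312-106891979), had 26.0, 34.1 and 42.6 CPM in DMSO and 42.7, 80.7 and 101.0 CPM with BrefA. The groups did not overlap, by a narrow margin, and the log2 fold change was 1.23 ± 0.27 (edgeR adjusted p = 0.000132). Hyou1, a large Hsp70-like chaperone and nucleotide exchange factor (chr9:44379490-44392369), had 86.7, 171.8 and 217.8 CPM in DMSO and 235.2, 296.0 and 597.8 CPM with BrefA. All BrefA wells were again above all DMSO wells, with plate 1 well F the highest. The log2 fold change was 1.05 ± 0.16 (edgeR adjusted p = 3.67e-08). Its size differed by plate, with 1.54 on plate 1 alone (edgeR adjusted p = 3.06e-08) and 0.54 on plate 2 alone (edgeR adjusted p = 0.125), where the call was lost. Hsp90b1, the ER member of the Hsp90 family (chr10:86690209-86705509), had 247.6, 369.9 and 554.1 CPM in DMSO and 468.6, 687.9 and 989.7 CPM with BrefA. One BrefA well lay within the DMSO range and 7 above it, and the log2 fold change was 0.87 ± 0.17 (edgeR adjusted p = 3.95e-05). The lectin chaperones did not pass. All 8 BrefA wells of Calr lay above the DMSO median, with a log2 fold change of 0.31 ± 0.24 (95% interval -0.16 to 0.78), and Calr was called when the 2 groups were fitted alone (0.32, edgeR adjusted p = 0.0216). For Canx, its membrane-bound relative, the value was 0.06 ± 0.15 (-0.23 to 0.35).

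In the translocation group, the largest difference was that of Ssr2, a subunit of the signal sequence receptor that sits beside the Sec61 channel (chr3:88575876-88588419). Ssr2 had 31.0, 39.4 and 81.5 CPM in DMSO and 66.0, 99.3 and 137.5 CPM with BrefA, a log2 fold change of 1.09 ± 0.22 (edgeR adjusted p = 2.94e-05). Of its 8 BrefA wells, 7 lay above the whole DMSO range. The channel subunits Sec61a1 (0.86 ± 0.22) and Sec61b (0.67 ± 0.18), the sister subunits Ssr1 (0.78 ± 0.20) and Ssr3 (0.57 ± 0.17), and the signal peptidase subunit Spcs2 (0.63 ± 0.19) also rose on the log2 scale. So did Srp54a, the GTP-binding subunit of the signal recognition particle, at 0.79 ± 0.24, but the mouse genome has near-identical copies of this gene and reads could be split among them. Spcs1, another peptidase subunit, had -0.09 ± 0.21 and did not pass.

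Among degradation genes, Vimp (also Selenos), a membrane partner of the retrotranslocation machinery (chr7:66079649-66089405), had 63.9, 117.6 and 181.6 CPM in DMSO and 151.5, 218.7 and 333.2 CPM with BrefA. Its log2 fold change was 0.98 ± 0.18 (edgeR adjusted p = 3.04e-06), and 7 of 8 BrefA wells were above the DMSO range. Derl1, a channel component, rose by 0.92 ± 0.22 and Sel1l, the adaptor of the ubiquitin ligase complex and the degradation gene with most counts, by 0.58 ± 0.14 on the log2 scale. Edem1 (0.25 ± 0.21), Derl2 (0.60 ± 0.31) and Os9 (-0.14 ± 0.23), which select or move misfolded glycoproteins, did not pass. In the oligosaccharyltransferase, Ostc (0.72 ± 0.23) and the catalytic subunit Stt3a (0.86 ± 0.29) rose. Stt3a was also lost when any of 3 well letters was left out, with values from 0.70 to 0.90. The scaffold subunits Rpn1 (0.15 ± 0.35), Rpn2 (0.05 ± 0.31) and Dad1 (-0.08 ± 0.24) had intervals that reach from below -0.5 to above 0.3, so a change of moderate size was not detectable at this depth. Other isomerases had positive values that did not pass, between 0.43 (P4hb) and 0.53 (Pdia3).

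**Figure D2:**
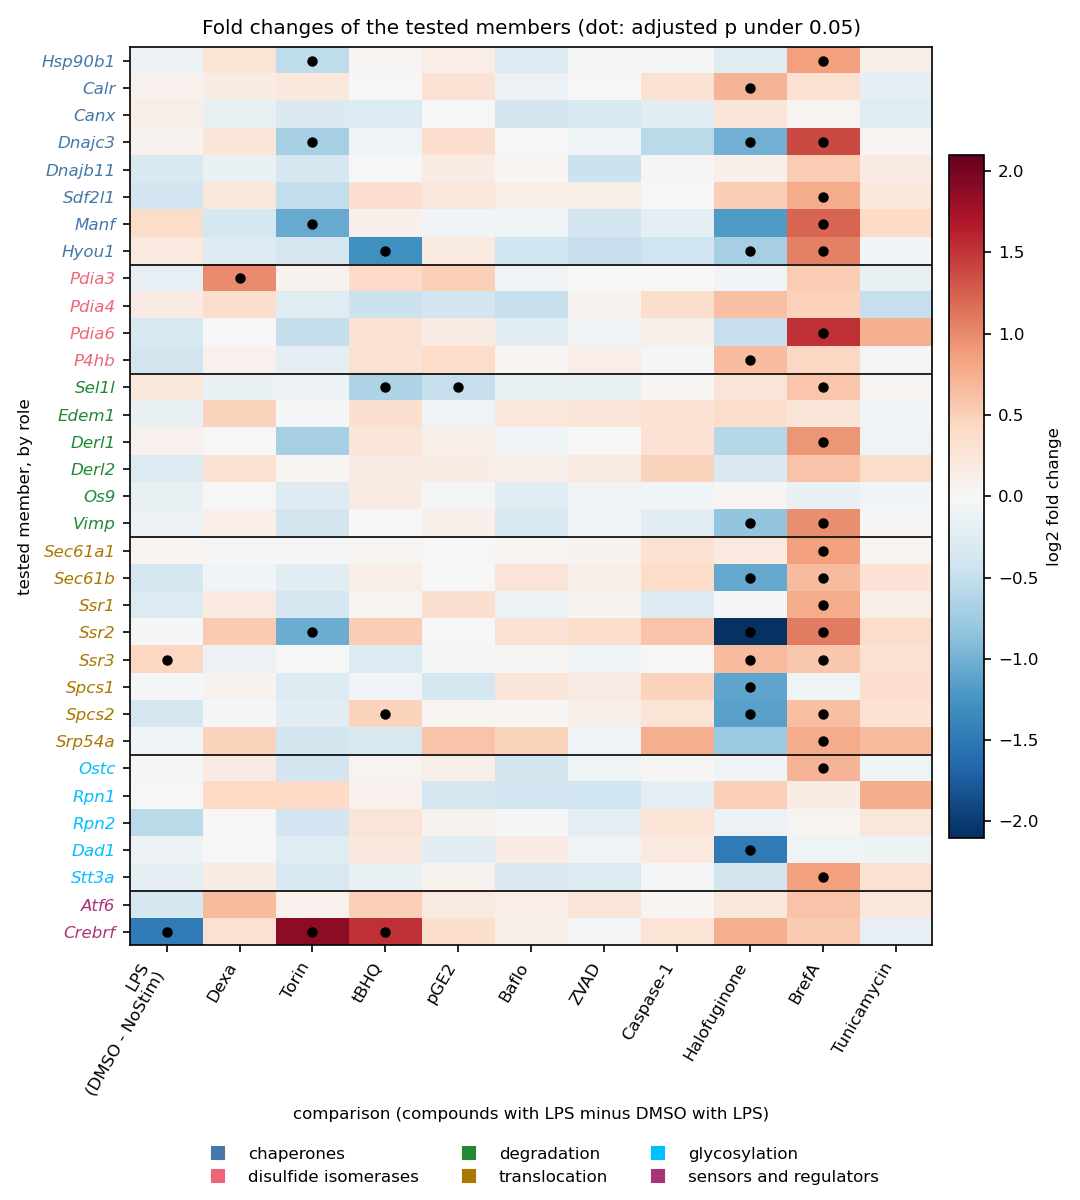
Heat map of log2 fold change for the 33 tested ER genes, in rows by role, across LPS against no stimulus and the 10 compounds against DMSO, in columns. A dot marks an adjusted p under 0.05. The BrefA column carries 18 dots, all higher, and the Baflo, ZVAD, Caspase-1 and Tunicamycin columns carry 0.

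Tunicamycin with LPS moved 0 of 33 members past the threshold against DMSO by edgeR and 0 by DESeq2, with 3 at an unadjusted p under 0.05. Over all genes tested, 2.8% were higher and 1.57% lower. The median log2 fold change of the members was 0.12, against 0.0011 over all genes, with 21 of 33 positive. Those 3 were Pdia6 (0.75 ± 0.25), Srp54a (0.66 ± 0.24) and Rpn1 (0.78 ± 0.33). Pdia6 had 41.9, 60.4 and 91.2 CPM, so all 8 wells lay above the DMSO median and 4 above the DMSO range, with an edgeR adjusted p of 0.0682. The intervals bound what could be missed: Dnajc3 had a log2 fold change of 0.05 (95% interval -0.31 to 0.40) and Hyou1 had -0.06 (-0.40 to 0.28). For Hsp90b1 the interval was -0.22 to 0.47. Without the library that stood apart the count was again 0.

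The direct comparison of Tunicamycin with BrefA, which has DMSO on neither side, found 15 of 33 members lower with Tunicamycin and 0 higher. The DMSO wells still entered the scaling, the plate term and the estimate of spread, which all 96 libraries share. Of all genes tested, 9.93% were higher and 6.99% lower. The members' median was -0.52, against -0.0038 over all genes, and 29 of 33 were negative. By role the 15 were 5 of 8 chaperones, 3 of 4 isomerases, 3 of 6 degradation genes, 3 of 8 translocation genes and 1 of 5 glycosylation genes. All 15 had the same sign on both plates, 11 members were called on plate 1 alone and 10 on plate 2 alone, and 16 were called without the library that stood apart.

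Dnajc3 was lower with Tunicamycin than with BrefA by a log2 difference of -1.34 ± 0.16 (edgeR adjusted p = 9.55e-12) and Hyou1 by -1.11 ± 0.16 (edgeR adjusted p = 9.61e-09). For both genes the Tunicamycin wells lay wholly below the BrefA wells, Hyou1 with 110.6, 149.9 and 213.5 CPM. Derl1 (-1.02 ± 0.22), Vimp (-0.96 ± 0.18), Manf (-0.81 ± 0.25) and Sec61a1 (-0.80 ± 0.21) completed the 6 largest among the members called, and their wells overlapped. Pdia4 had -0.96 ± 0.38 and did not pass (edgeR adjusted p = 0.0696). Pdia6, which had the highest Tunicamycin value among the isomerases, was lower than with BrefA by -0.78 ± 0.22. For Srp54a (-0.13, 95% interval -0.57 to 0.31) and Rpn1 (0.63, -0.01 to 1.27), no difference between the compounds was detectable. Since no dose is given, these differences are between the wells as treated and not between matched doses.

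**Figure D3:**
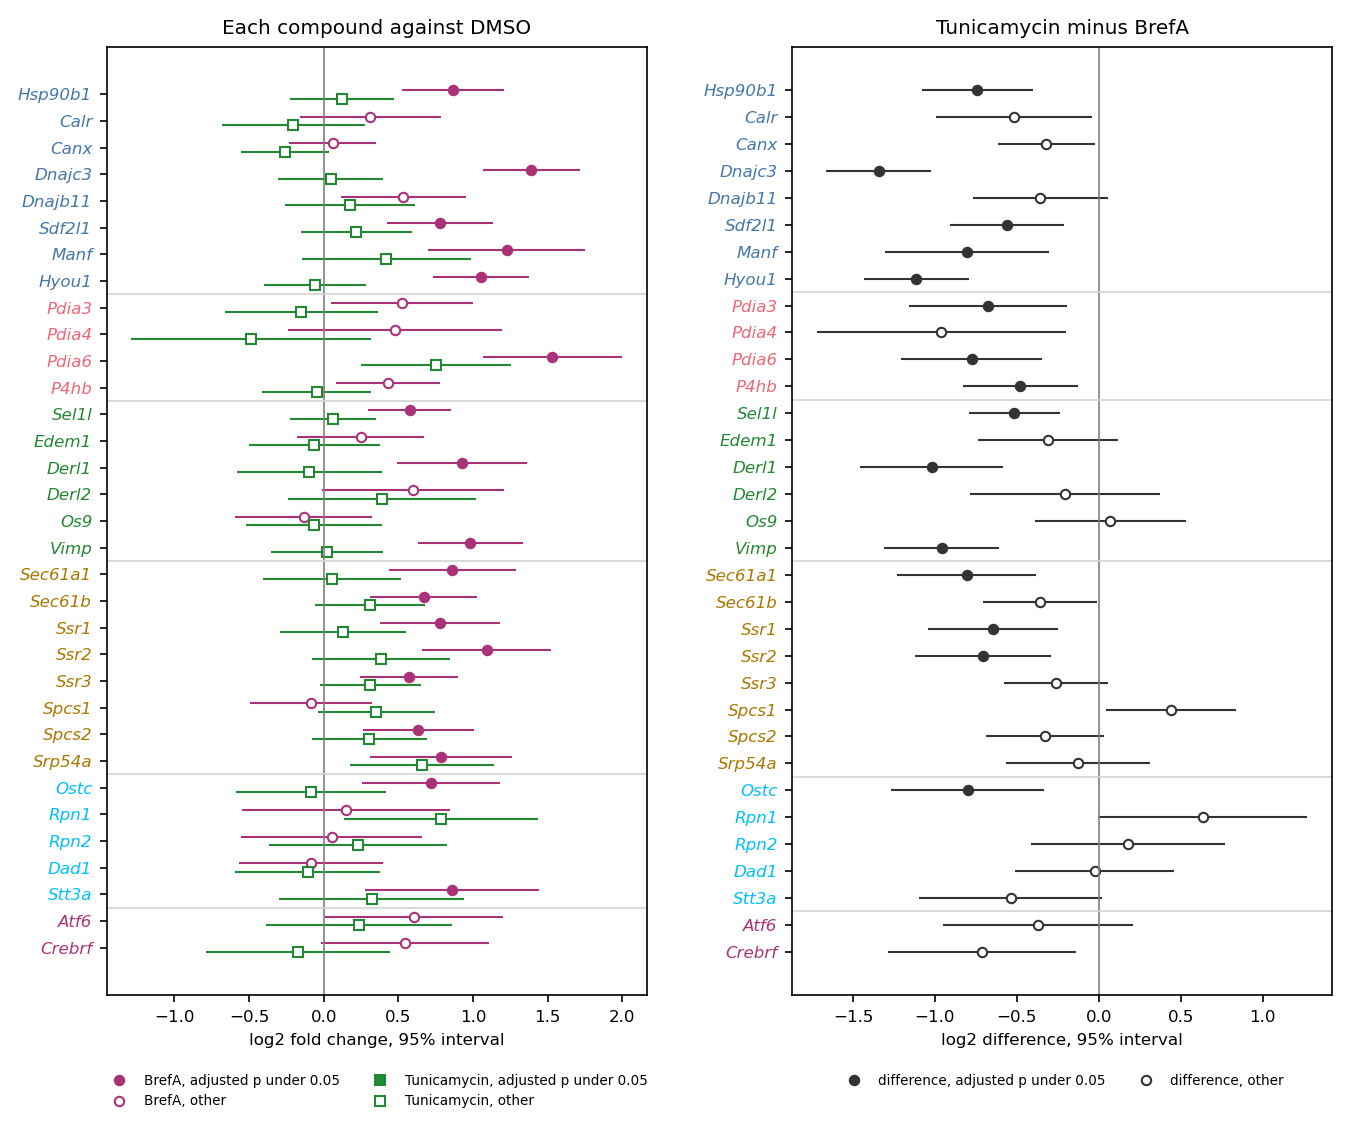
Left, log2 fold change against DMSO of each tested ER gene (rows), with 95% intervals. Circles are BrefA and squares are Tunicamycin, which share the DMSO wells. Right, log2 difference of Tunicamycin against BrefA with 95% intervals, which lies below 0 for 29 of 33 genes and lowest for Dnajc3 at -1.34.

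A list of 18 unfolded protein and integrated stress response genes that are not members, 12 of them tested, gives the setting. With BrefA 8 rose and 1 fell, where 8.08% of all genes tested were higher and 9.25% lower. With Tunicamycin 4 rose and 0 fell, where 2.8% were higher and 1.57% lower. Hspa5, the central ER chaperone that the members above assist, had 573.8, 729.8 and 842.3 CPM in DMSO, 1942.8, 2239.1 and 2732.2 CPM with BrefA and 831.6, 1065.9 and 1253.5 CPM with Tunicamycin. Its log2 fold changes were 1.66 ± 0.11 with BrefA and 0.53 ± 0.11 with Tunicamycin (edgeR adjusted p = 0.000278). Herpud1, a degradation factor, had 3.72 ± 0.25 and 2.15 ± 0.28. So Hspa5, Herpud1, Ddit3 and Atf4 were called higher in the Tunicamycin wells, in which 0 of 33 members passed. The members Pdia6, Rpn1 and Srp54a had larger log2 fold changes there than Hspa5, from fewer counts, and did not pass. The Tunicamycin wells were unlike each other: Herpud1 had 24.1, 101.2 and 182.4 CPM, against 11.6, 22 and 33.5 CPM in DMSO. Dnajb9, a co-chaperone gene of the Xbp1 branch, had 2.16 ± 0.30 with BrefA and -0.23 ± 0.39 with Tunicamycin, and the 2 compounds differed by -2.39 ± 0.31 (edgeR adjusted p = 1.84e-10). A second list, of 66 other genes of the same ER machines with 41 tested, had 8 higher and 1 lower with BrefA and 0 higher and 1 lower with Tunicamycin. The median log2 fold change of that list was 0.34 with BrefA, with a lowest value of -1.07, and 0.052 with Tunicamycin. Its Srp19 (1.46) and Srp72 (0.83), subunits of the signal recognition particle, and Sec61g (0.82), the third channel subunit, rose with BrefA.

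**Figure D4:**
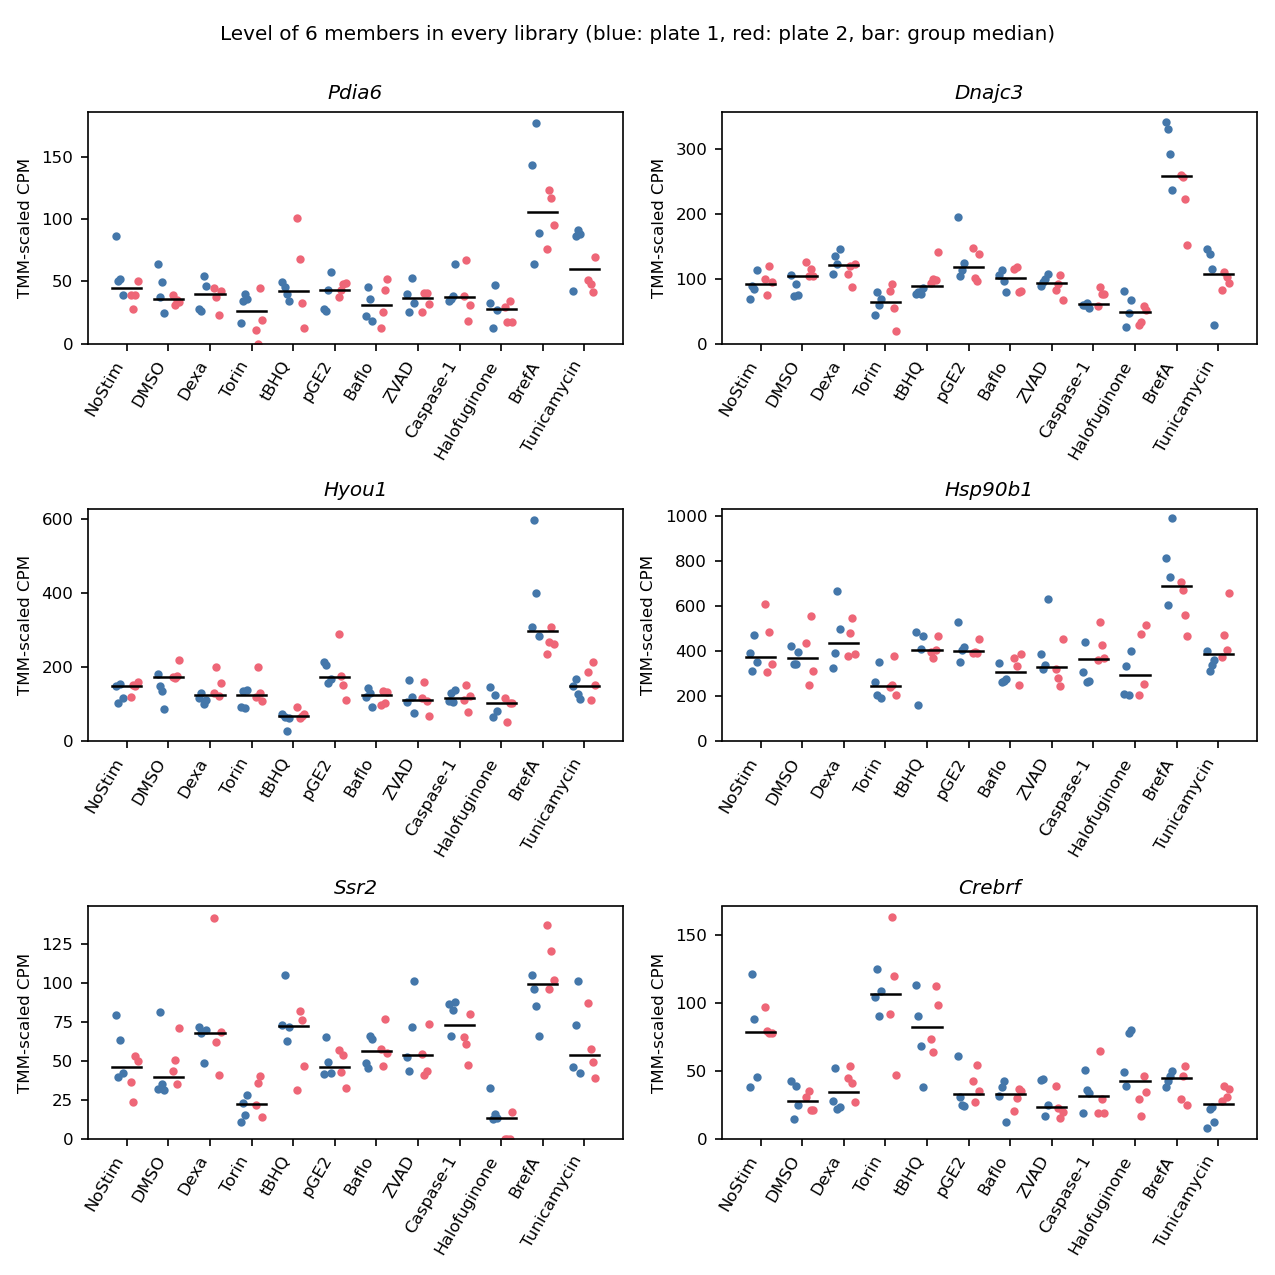
TMM-scaled CPM of Pdia6, Dnajc3, Hyou1, Hsp90b1, Ssr2 and Crebrf in each of the 96 libraries by group, with plate 1 in blue and plate 2 in red. The BrefA wells of Dnajc3 lie between 151.5 and 342.1 CPM, above every DMSO well, and the Torin wells of Crebrf lie between 47.0 and 163.2 CPM against at most 42.6 CPM in DMSO.

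With Halofuginone and LPS, members were called in both directions, in neither more often than all genes tested. Against DMSO, 8 of 33 were lower and 3 higher, where 25% of all genes tested were lower and 15.3% higher. The members' median was -0.073, against -0.195 over all genes, and it was positive with same-named wells summed (0.060) and on plate 1 alone (0.078). These wells had the fewest counts and the Rn45s shares given above. Their 11 macrophage markers summed to 3066.62, 3685.25 and 4437.31 CPM, against 4201.48, 5002.24 and 5332.83 CPM in DMSO. The markers went both ways. Ctsb, the largest part of the sum, had a median of 1456.7 CPM against 2536.7 CPM in DMSO. Medians of Cd14, Fcgr3, Aif1, Emr1 and Ptprc were also lower. Cd68 had 180.5 against 80.6 CPM, and Lyz2, Csf1r and Itgam also had higher medians. Mertk was near the floor in both groups. The plasma cell list, all of it Sdc1 here, was at 79.95, 159 and 312 CPM against 23.2, 37.4 and 53.1 CPM, without overlap, and the part of either list in the members' values was not tested. With the Rn45s share of each library as a covariate 1 member was called, Hyou1, so the compound and this property of the wells cannot be told apart. On plate 1 alone 1 member passed and on plate 2 alone 5, and all 11 had the same sign on both plates.

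Of the 8 lower members 4 were of the translocation group, 2 were chaperones, 1 was a degradation gene and 1 a glycosylation gene. Ssr2 had 0.0, 13.1 and 32.5 CPM with Halofuginone, from 6 counts in all, against 98 counts in DMSO. It was at 0 in 3 of the 4 plate 2 wells, and 7 of 8 wells lay below the DMSO range. The log2 fold change was -2.07 ± 0.49 (edgeR adjusted p = 0.000316). Spcs2 (0.0, 24.1 and 53.3 CPM) and Spcs1 (0.0, 34.1 and 78.0 CPM), subunits of the signal peptidase, had -1.14 ± 0.34 and -1.11 ± 0.33. In DMSO these 2 genes had 38.6, 59.1 and 67.0 CPM, and 47.9, 80.8 and 123.9 CPM. All 8 wells of each lay below the DMSO median. Below the DMSO range were 7 wells for Spcs2 and 4 for Spcs1. Sec61b had 14.6, 34.3 and 81.3 CPM against 58.6, 76.8 and 117.7 CPM in DMSO, a log2 fold change of -1.07 ± 0.30 (edgeR adjusted p = 0.00272). The glycosylation subunit Dad1, with 0.0, 15.5 and 34.4 CPM against 21.3, 41.8 and 69.6 CPM, had -1.48 ± 0.44 (edgeR adjusted p = 0.00399). Ssr3 went the other way from its partner Ssr2, with 102.4, 171.0 and 226.5 CPM against 54.2, 106.1 and 122.7 CPM in DMSO. Its log2 fold change was 0.67 ± 0.21 (edgeR adjusted p = 0.00559).

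Of the chaperones, Dnajc3 had 25.6, 49.2 and 81.3 CPM with Halofuginone, with 7 of 8 wells below the DMSO range, a log2 fold change of -1.01 ± 0.28 (edgeR adjusted p = 0.00192). Hyou1 had 51.1, 103.3 and 146.4 CPM, all below the DMSO median, and -0.69 ± 0.24, a call lost with same-named wells summed (-0.54, edgeR adjusted p = 0.0782). Vimp, of the degradation group, had -0.83 ± 0.28. P4hb, the classical disulfide isomerase and the isomerase with most counts, rose by 0.64 ± 0.22. Calr was called higher at 0.71 ± 0.25 (edgeR adjusted p = 0.0164), but its level turned on 1 well letter: well F had 2893.8 CPM on plate 1 and 2368.1 CPM on plate 2, and the other 6 wells ran from 1148.3 to 1421.0 CPM. DMSO ran from 847.1 to 1423.9 CPM. Without well F the log2 fold change was 0.30 (edgeR adjusted p = 0.396) and with same-named wells summed it had an edgeR adjusted p of 0.0539.

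In the other ER list, 16 of 41 were lower with Halofuginone and 2 higher, where 25% of all genes tested were lower and 15.3% higher. The median of that list was -0.40, against -0.195 over all genes. Among the lower genes were further translocation subunits: Ssr4 (-1.70), the signal peptidase subunits Sec11c (-1.58) and Sec11a (-1.42), and Srp9 (-1.57). Transcript length moved with these values. Across the 33 members the Spearman correlation of the Halofuginone log2 fold change with median coding-transcript length (GENCODE M21) was 0.38, and across 4638 genes tested it was 0.366. For the other compounds against DMSO, the correlation over all genes tested ran from -0.327 (Caspase-1) to 0.174 (Torin). These correlations were computed after the values were seen, and are a description over genes that share the same libraries. Sec61b (564 bases), Ssr2 (839.5), Spcs2 (874.5) and Spcs1 (949) are short, and Ssr3 (2213) is longer, but Dad1 has 2184.5. The part of length in the differences was not tested.

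**Figure D5:**
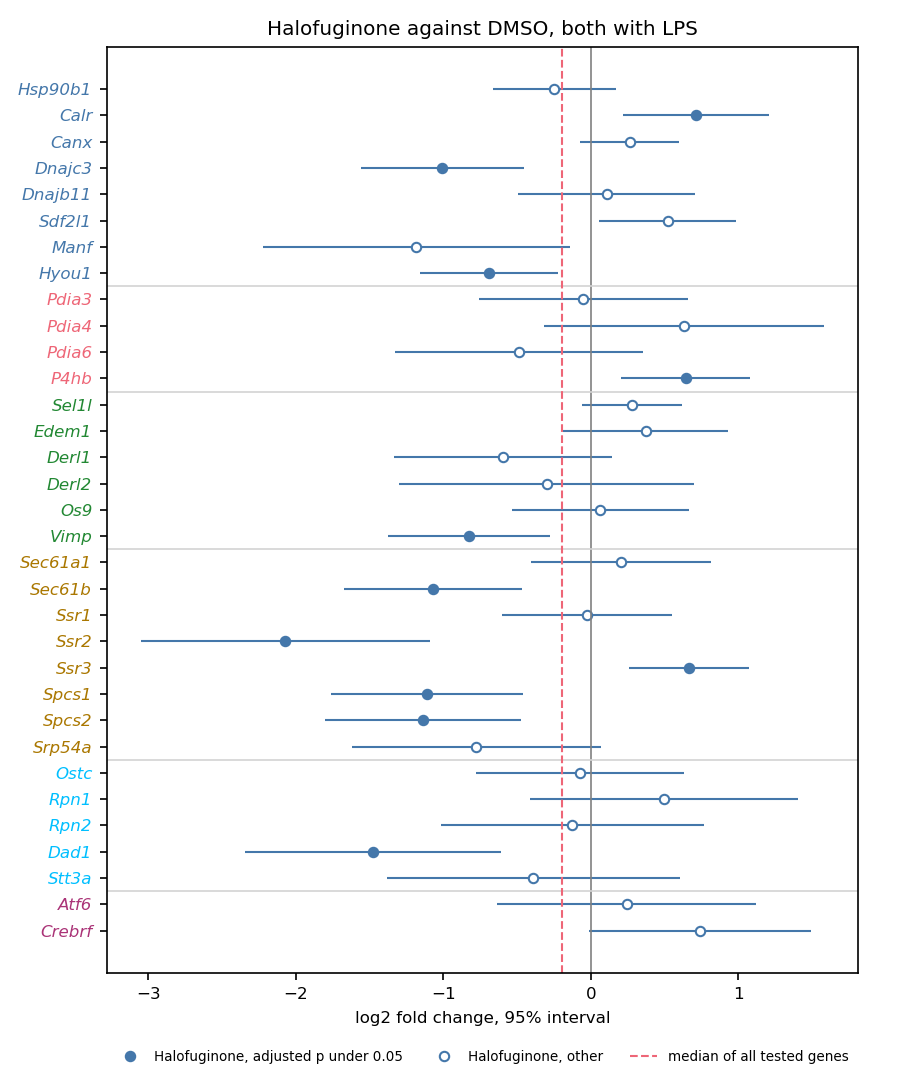
Log2 fold change of the 33 tested ER genes with Halofuginone against DMSO, with 95% intervals, by role. The dashed line is the median of all genes tested, -0.195, and Ssr2 lies lowest at -2.07.

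Set against Tunicamycin, Halofuginone had 11 members lower and 4 higher, where 27.3% of all genes tested were lower and 17.7% higher. The median was -0.29 for the members and -0.19 for all genes. Ssr2 differed by -2.46 ± 0.47 (edgeR adjusted p = 5.67e-06) and its groups did not overlap, with at most 32.5 CPM in Halofuginone and at least 39.2 CPM in Tunicamycin. Manf (-1.61 ± 0.50), Spcs1 (-1.47 ± 0.32), Spcs2 (-1.44 ± 0.33), Srp54a (-1.44 ± 0.40) and Sec61b (-1.38 ± 0.30) were next. Calr (0.92), Crebrf (0.91), P4hb (0.69) and Canx (0.52) were higher. With the Rn45s share as a covariate 3 members were called, Ssr2, Spcs2 and Hyou1, all lower, and on plate 2 alone 7.

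tBHQ with LPS changed 4 of 33 members, 2 in each direction, where 17.3% of all genes tested were higher and 19.1% lower. The members' median was 0.089 and that of all genes 0.044. With RLE size factors in place of TMM the median of all genes moved to 0.19 and their calls from 858 higher and 949 lower to 1242 higher and 766 lower. The members then had 5 higher and 2 lower, the 3 added being P4hb, Sdf2l1 and Ssr2. Hyou1 fell to 28.5, 67.2 and 93.1 CPM, from 86.7, 171.8 and 217.8 CPM in DMSO. Of the 8 tBHQ wells, 7 lay below the DMSO range, and the log2 fold change was -1.28 ± 0.19 (edgeR adjusted p = 5.74e-09). Sel1l also fell, to 76.9, 124.5 and 179.5 CPM from 113.3, 207.3 and 247.7 CPM, by -0.64 ± 0.15 (edgeR adjusted p = 0.00025). Every tBHQ well of Sel1l was below the DMSO median. Both genes rose with BrefA. The other 7 tested chaperones did not pass with tBHQ, and Dnajc3 had 76.4, 89.4 and 141.1 CPM. Spcs2 was called higher at 0.48 ± 0.19 (edgeR adjusted p = 0.0395), a call lost when any 1 of the 4 well letters was left out (0.44 to 0.51).

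Crebrf, a regulator that binds the ER factor Creb3 and has no folding activity of its own, was called with LPS, tBHQ and Torin. It had 38.1, 78.7 and 121.6 CPM in NoStim (chr17:26715650-26776635) and 14.8, 27.6 and 42.6 CPM in DMSO with LPS. With tBHQ it had 37.8, 82.1 and 113.0 CPM, a log2 fold change of 1.53 ± 0.26 (edgeR adjusted p = 2.03e-07) with 7 of 8 wells above the DMSO range. With Torin it had 47.0, 106.5 and 163.2 CPM, and 1.87 ± 0.26 (edgeR adjusted p = 1.09e-09) with no overlap. The tBHQ and Torin wells with LPS thus overlapped in level with the wells without LPS, a comparison that was not tested.

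Between tBHQ and BrefA, 19 members were lower with tBHQ and 1 higher, where 18.7% of all genes tested were lower and 17.6% higher. The median was -0.54 for members and 0.013 for all genes. With RLE size factors the median of all genes was 0.12, their calls moved from 875 higher and 930 lower to 1116 higher and 762 lower, and 15 members were called, 14 of them lower. Hyou1 had the largest difference, -2.34 ± 0.18 (edgeR adjusted p = 1.25e-23), with at most 93.1 CPM against at least 235.2 CPM. Dnajc3 differed by -1.48 ± 0.16 (edgeR adjusted p = 6.92e-14), again with no overlap. Sel1l (-1.22 ± 0.15), Pdia6 (-1.22 ± 0.23), Manf (-1.12 ± 0.26) and Srp54a (-1.12 ± 0.25) followed, with overlapping wells. Crebrf was the 1 higher member, at 0.99 ± 0.24. On plate 1 alone 9 members passed and on plate 2 alone 12, and all 20 kept their sign on both plates.

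Torin with LPS lowered 4 of 33 members and raised Crebrf, where 7.11% of all genes tested were lower and 9.61% higher. The median of the members was -0.29, against -0.022 over all genes, and 27 of 33 were negative. Manf, Dnajc3 and Hsp90b1 are chaperones or their helpers, and Ssr2 is of the translocation group. Manf had 0.0, 10.4 and 49.5 CPM, from 27 counts, with 6 of 8 wells below the DMSO range but 1 above it, and a log2 fold change of -1.06 ± 0.36 (edgeR adjusted p = 0.0294). Ssr2 had 11.0, 22.1 and 40.0 CPM, with 6 wells below the DMSO range, and -1.04 ± 0.29 (edgeR adjusted p = 0.00597). Dnajc3 had 18.8, 63.7 and 92.2 CPM, all below the DMSO median, and -0.70 ± 0.20 (edgeR adjusted p = 0.00715). Hsp90b1 had 193.1, 245.3 and 379.7 CPM, with 7 wells below the DMSO median, and -0.54 ± 0.18 (edgeR adjusted p = 0.0317). Crebrf passed on each plate alone and without any 1 well letter. Of the lower calls, 1 passed on each plate alone and 2 whenever a well letter was left out. For Hsp90b1 the edgeR adjusted p was 0.0963 with same-named wells summed.

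LPS alone, DMSO with LPS against NoStim, had few calls among the members. One was lower and 1 higher, where 16.6% of all genes tested were lower and 19.5% higher. The median was -0.11 for members and -0.036 for all genes, and 23 of 33 were negative. Crebrf fell by 1.46 on the log2 scale (-1.46 ± 0.25, edgeR adjusted p = 5.01e-07). Ssr3 was called higher at 0.44 ± 0.18 (edgeR adjusted p = 0.0414), from 45.8, 85.4 and 92.1 CPM to 54.2, 106.1 and 122.7 CPM, but passed on neither plate alone. The scaling mattered here: with RLE size factors the median of all genes moved from -0.036 to -0.19 and 6 members were lower and 0 higher, with 5 of 33 positive. The balance of all 4963 genes turned with it, from 968 higher and 822 lower to 778 higher and 1248 lower. The 5 added were P4hb, Rpn2, Sdf2l1, Sec61b and Spcs2, so the direction of Ssr3 was a call under TMM and not under RLE (0.29, edgeR adjusted p = 0.197). NoStim wells have other well letters than the rest and no stated vehicle, and these differences cannot be told apart from LPS.

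Dexa, read here as dexamethasone, raised 1 member and lowered 0, where 1.95% of all genes tested were higher and 1.61% lower, and the members' median was 0.14. That gene was Pdia3, an isomerase that works with Calr and Canx on glycoproteins (chr2:121413775-121438687). Pdia3 had 55.7, 85.5 and 168.0 CPM with Dexa and 29.3, 47.1 and 73.7 CPM in DMSO, a log2 fold change of 0.99 ± 0.23 (edgeR adjusted p = 0.00168). The 2 highest Dexa wells were both named H, with 148.5 CPM on plate 1 and 168.0 CPM on plate 2, and without well H the log2 fold change was 0.65 (edgeR adjusted p = 0.211). pGE2 lowered 1 member and raised 0, where 5.98% of all genes tested were lower and 5.2% higher. It was Sel1l, at 93.2, 147.5 and 198.9 CPM, with -0.49 ± 0.15 (edgeR adjusted p = 0.0161). Without well H its value was -0.37 (edgeR adjusted p = 0.234).

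Baflo and ZVAD moved 0 members by edgeR and 0 by DESeq2, with 2 at an unadjusted p under 0.05 in each, and the same comparison called 0% of all genes higher and 0% lower by edgeR for either compound. Canx and Hyou1 were the 2 in both, with Hyou1 at -0.41 ± 0.17 with Baflo and -0.48 ± 0.17 with ZVAD; these comparisons share the DMSO wells. Caspase-1 moved 0 members by edgeR, with 6 at an unadjusted p under 0.05, where 1.39% of all genes tested were higher and 1.51% lower. DESeq2 called 1 member higher, Srp54a, which had 0.76 ± 0.24 by edgeR (adjusted p = 0.0535). Dnajc3 had 54.7, 61.2 and 86.8 CPM with Caspase-1, all 8 wells below the DMSO median of 104.6 CPM, and -0.56 ± 0.19 (edgeR adjusted p = 0.0662).

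The sensors were measured least well. Atf6, the membrane-bound factor cleaved on stress, was the 1 sensor tested, with 14.2, 23.1 and 50.3 CPM in DMSO, 21.1, 38.8 and 53.4 CPM with BrefA, and 22.9, 28.2 and 38.8 CPM with Tunicamycin. All groups overlapped, and its BrefA value was 0.61 ± 0.30 (edgeR adjusted p = 0.176). On plate 1 alone Atf6 had 1.25 and was called (edgeR adjusted p = 0.0353), and on plate 2 alone it was not. Ern1, Eif2ak3 and Wfs1, a membrane regulator of ER calcium, had 288, 124 and 46 counts over all 96 libraries and did not pass the filter, and neither did Syvn1 (427 counts), Creld2 (318), Edem2 (352), Spcs3 (517) and Ddost. With the filter relaxed to a total of 10 counts, 4 of these 8 had a call in at least 1 comparison against DMSO or NoStim. They were Syvn1, Creld2, Ern1 and Wfs1, in the BrefA, LPS or Halofuginone comparison. Of all 12392 symbols in that fit, 363 were higher and 448 lower with BrefA. With LPS 1097 were higher and 907 lower, and with Halofuginone 671 and 1686. Syvn1, the ubiquitin ligase that works with Sel1l, had 4.2, 6.8 and 11.6 CPM in DMSO and 14.2, 39.3 and 50.7 CPM with BrefA, without overlap, and a log2 fold change of 2.11 ± 0.40 (edgeR adjusted p = 9.5e-06). DMSO had the lowest Syvn1 median of the 12 groups, and against NoStim, at 12.1, 19.7 and 27.7 CPM, it was called lower by the same fit (-1.18 ± 0.44, edgeR adjusted p = 0.0464). Creld2, a secreted isomerase-like protein, had 1.22 ± 0.40 with BrefA (edgeR adjusted p = 0.0381). Ern1 had 15.6, 52.2 and 87.9 CPM with Halofuginone against 0.0, 16.1 and 27.1 CPM in DMSO, from 28 and 30 counts, and 1.54 ± 0.46 (edgeR adjusted p = 0.00665). Wfs1 had 8 counts over the BrefA wells and 0 over the DMSO wells, too few for a fold.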

How the data were processed

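Per the labels' protocols, lysates were turned into 3′ end digital expression libraries by SCRB-Seq and Nextera steps that the submitters had modified. Per the submitters' processing notes, BWA and the mm10 build were used. Neither the annotation nor any collapsing of molecular identifiers is stated in what was used here. The authors deposited whole-number read counts for 23481 symbols in 96 libraries, and 7459 symbols had no count. Library totals ran from 80196 to 379198, and intervals cover the spread between wells.

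Counts were fitted with edgeR 4.0.16 in R 4.3.3: TMM scaling, filterByExpr on the groups (4963 symbols left), a model of group and plate over all 96 libraries, robust quasi-likelihood tests and Benjamini-Hochberg adjustment at 0.05 over all genes tested, in 14 comparisons. CPM are TMM-scaled, SE is the log2 fold change over the root of F, and intervals are at 95%. Tested on simulated BrefA against DMSO data of 4963 genes, the fit called 20 of 80 genes changed 1.5-fold, 37 of 55 changed 2-fold and 64 of 65 changed 4-fold. DESeq2 1.42.0 and the other alternatives are in the closing section. Plots were drawn with matplotlib 3.10.9.

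The members and lists were chosen with earlier results of these data known. Members given in full were up to 6 past the threshold with the largest change in each comparison, sensors that were tested, and the member of each role with most counts. Non-members came only from the 2 lists. Promoters were matched for 33 of 41 members by symbol or older symbol. Gene positions are from GENCODE M21. Protein sequences were not used here.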

Additional observations from a re-analysis of the deposited data

Results flagged for a closer look

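The values screened were the summed share of the 41 genes in each group and the level of single members. These members were the up to 6 called with the largest change in each comparison, in the groups compared. Calr, P4hb and Atf6, given in full for their counts or as a sensor, were not screened. Calr is described under other observations. In 73 groups of 8 values, the highest or lowest library was set against its nearest neighbour. Of these groups, 4 had a library that stood off by more than Dixon's 95% critical value. Chance alone gives about 1 in 20 of the 73 groups, or 3.65.

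The summed share was 0.643% in NoStim plate 2 well A, with the next well at 0.565%, and 0.532% in DMSO plate 2 well G, with the next at 0.458%. In both libraries Calr was also the highest of its group, with 1485.8 CPM in NoStim and 1423.9 CPM in DMSO. Dnajc3 was at 141.1 CPM in tBHQ plate 2 well H, with the next well at 100.1 CPM. Hyou1 was at 597.8 CPM in BrefA plate 1 well F, with the next at 398.3 CPM.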

How the results depend on the processing

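No single call changed sign under the alternatives run. The balance of higher and lower members moved under RLE scaling for LPS and tBHQ, as given above. The members' median did change sign for Halofuginone, from -0.073 to 0.060 with same-named wells summed and 0.078 on plate 1 alone. For tBHQ it went from 0.089 to -0.0090 with no filter. For Baflo it went from -0.023 to 0.057 without well letter E and 0.0013 with DESeq2. For ZVAD it went from -0.027 to 0.063 on plate 1 alone and 0.072 without well letter G. For Caspase-1 it went from 0.045 to -0.091 without well letter F. Counts below are of members past the threshold, higher and lower together. Under RLE scaling and DESeq2 LPS had 6, tBHQ 7 and Caspase-1 1. On plate 1 alone LPS had 1, Torin 2, pGE2 2, Caspase-1 1, Halofuginone 1, Tunicamycin 1 and tBHQ against BrefA 9. On plate 2 alone LPS had 1, Dexa 0, Torin 2, pGE2 0, Halofuginone 5, BrefA 10, Halofuginone against Tunicamycin 7 and tBHQ against BrefA 12. With no plate term, same-named wells summed, the compared groups alone, or Rn45s and Lars2 left out, LPS had 1. With the compared groups alone pGE2 and Caspase-1 had 2. With no filter pGE2 had 0. With the Rn45s share as a covariate Halofuginone had 1 and Halofuginone against Tunicamycin 3. Caspase-1 had 1 without Tunicamycin plate 2 well F and 2 without 3 libraries.

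Leaving out 1 well letter in turn gave LPS 1 to 2, Dexa 0 to 1, Torin 3 in each case, tBHQ 3 to 4, pGE2 0 to 1, Halofuginone 7 (without F) to 11, BrefA 14 to 15, Tunicamycin 0 to 1, Tunicamycin against BrefA 10 to 14, Halofuginone against Tunicamycin 10 to 14 and tBHQ against BrefA 13 (without G) to 18. Baflo, ZVAD and Caspase-1 had 0 in each.

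Of 1562 values for 92 single calls, 1310 kept sign and side of the threshold, 252 kept the sign and lost the call, and 0 changed sign. With same-named wells summed 9 were lost (Ssr3 with LPS, Hsp90b1 with Torin, Spcs2 with tBHQ, Calr and Hyou1 with Halofuginone, P4hb in Tunicamycin against BrefA, Hyou1 in Halofuginone against Tunicamycin, Pdia4 and Sdf2l1 in tBHQ against BrefA), and Dnajb11 with BrefA, Sdf2l1 and Sel1l with Halofuginone and Ssr3 in Halofuginone against Tunicamycin were gained. The causes were not tested.

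Wells of the same letter on one plate deviated together only weakly between compounds and DMSO (mean r 0.0496, over 0.1 in 0 of 10 groups). The mean r ran from 0.0127 for Dexa to 0.0923 for tBHQ. A replicate block of plate and letter gave BrefA 18, Tunicamycin against BrefA 15, Halofuginone 12, tBHQ 5 and Caspase-1 1. No block could be fitted for LPS, whose NoStim wells have other letters.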

Other observations

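Calr was unevenly high in single wells, and often in the same well letter of both plates. Of 96 libraries, 9 lay above 1.5 times the median of their group, and 6 of these were 3 same-named pairs. Caspase-1 well F had 1923.1 and 2939.5 CPM on plates 1 and 2, and the other 6 wells ran from 604.3 to 1103.3 CPM. Halofuginone well F had 2893.8 and 2368.1 CPM, with 1148.3 to 1421.0 CPM in the others. Torin well G had 2478.4 and 2268.1 CPM, with 559.1 to 974.1 CPM in the others. The remaining 3 were NoStim plate 2 well A, DMSO plate 2 well G and Dexa plate 2 well G. The pattern was noticed in the data, and the labels used here do not say whether same-named wells share a culture or lysate.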
